A study of Danaus plexippus with 48 samples.

Results

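Female and male monarch butterflies (Danaus plexippus) were compared in the 16 libraries of brains kept in long days, out of 48 libraries in the series. In this long photoperiod group (LP), 8 pools were labelled female and 8 were labelled male, and each library was made from 3 pooled brains. The members were chosen by their labels alone, and pools were paired by zeitgeber time (ZT, hours after lights-on), with 1 female and 1 male pool at each of ZT 1, 4, 7, 10, 13, 16, 19 and 22. All LP butterflies were wild-type, were raised in the laboratory from egg to adult with 15 h of light a day (9 h dark) at 21 degrees C, and stayed in that cycle for at least 7 days as adults. A further 2 groups of 16 libraries, also of wild-type butterflies at 21 degrees C, were used only to look up the LP results. SP (short photoperiod) butterflies were laboratory-raised with 10 h of light a day (14 h dark). Migrant butterflies were caught wild in autumn and kept with 11 h of light a day (13 h dark), and their libraries were made with another kit. No age of the adults is given. The retinal pigment layer had been cut away, and RNA was read as single 50-base reads.

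In butterflies the sexes differ in their sex chromosomes. Females carry 1 Z and 1 W chromosome, while males carry a pair of Z chromosomes, so a gene on the W is present only in females, and a gene on the Z is present in fewer copies in females and gives less RNA there unless its output is adjusted. In the monarch the Z is fused with a former autosome, and the ancestral and added parts are known for different modes of dosage compensation. The deposited gene tables place each gene on a scaffold, named here as deposited, but not on a chromosome, so differences were described by scaffold. The tables hold gene identifiers without names, and the reference gene table used here paired 0 of 15130 identifiers with a name. No gene role can be given, and the labelled tissue was not checked against brain markers.

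The sex label and the replicate number cannot be told apart in LP, where every pool labelled female is the first replicate of its time and every pool labelled male the second. The same holds in Migrant, but in SP the first replicate is labelled male. Of the 6 genes described one by one below, all went with the replicate number in LP and SP, and so against the sex label in SP, and 5 did so with no overlap in Migrant as well. Which label is right was not decided. Groups are therefore called pools labelled female and pools labelled male.

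Reads assigned to genes were 8.60 M ± 0.90 (SD, n = 8, range 7.30 to 10.3; M, 1e6 reads) in pools labelled female and 9.40 M ± 1.02 (n = 8, range 7.44 to 10.6) in pools labelled male. Between 2252 and 2555 genes were listed at 0 in each library. The first principal component of the 16 libraries held 16.3% of the variance, and the labels did not overlap on it (-17.9 to -4.65 for female, -4.40 and above for male). The second held 9.92% and set the male pool of ZT1 apart, at -33.6.

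Differences between the labels were widespread but small. The question was which genes differ in level, and each of 11518 genes with a mean of 0.5 FPKM (fragments scaled by gene length and by mapped reads) or more over the 16 libraries was tested with limma on log2(FPKM + 1), with pools paired by ZT. Called means a Benjamini-Hochberg adjusted p under 0.05 in that fit. Of the tested genes, 1967 (17.1%) were called, of which 930 (8.07%) were higher under the female label and 1037 (9%) under the male label. The median difference of the called genes, female minus male in log2(FPKM + 1), was 0.227 among the first and -0.259 among the second. Over all tested genes the median was -0.00137 and the quartiles were -0.114 and 0.0992.

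Only 38 genes (0.33% of those tested) were called with a log2 difference beyond 1 in either direction, 15 of them female-higher and 23 male-higher. Of the 1967 calls 1034 lay within 0.25 of 0. The direction was the same in all 8 pairs for 1132 called genes, 576 higher in female and 556 in male. The lowest pool of one label lay above the highest pool of the other for 322 genes (2.8% of those tested), 155 (1.35%) higher in female and 167 (1.45%) higher in male.

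The share of genes called rose with level, from 4.73% of genes with a mean of 0.5 to 2 FPKM to 25.0% of those at 50 FPKM or more. In that top class, 447 were higher in pools labelled male and 273 in pools labelled female. The balance also differed by gene span, the length from start to end as deposited. In the shortest 25% of tested genes 313 were higher in female and 212 in male, and in the longest 25% 181 were higher in female and 279 in male. Spearman's rho across genes between the difference and span was -0.107, a description only, since genes of 1 library share its depth and fragment lengths. What part span has in the calls was not tested.

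**Figure D1:**
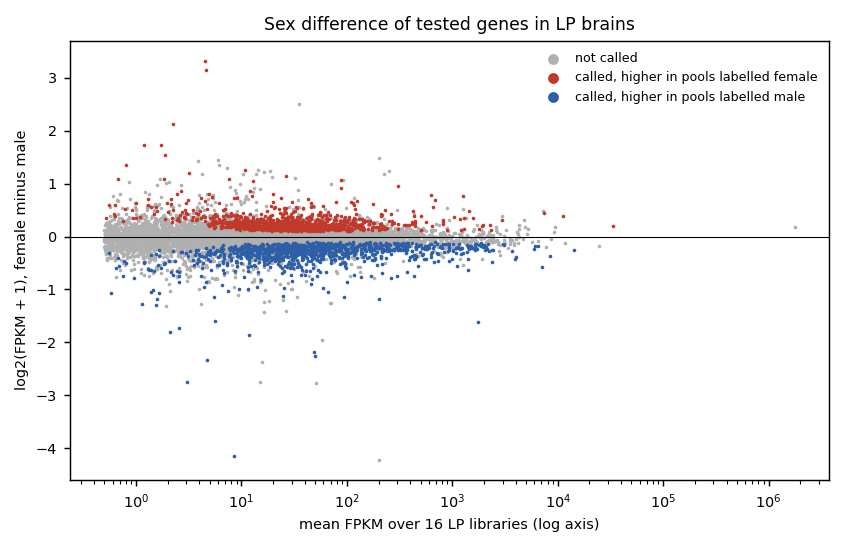
Each point is 1 of the 11518 tested genes; the x axis is its mean FPKM over the 16 LP libraries on a log axis, and the y axis is the fitted difference in log2(FPKM + 1), female minus male. Coloured points are the 930 genes called higher in pools labelled female (red) and the 1037 called higher in pools labelled male (blue), most of them close to 0 and only 38 beyond 1 in either direction.

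The number of calls depended on the libraries in the fit. Leaving out the pair of ZT7, ZT10, ZT13, ZT16, ZT19 or ZT22 lowered it to between 848 and 1281, and leaving out the pair of ZT1 raised it to 2399. With 1 spread estimated over all 48 libraries 143 genes were called, all of them also called from LP alone with the same sign. Because each value is from a bulk pool, fewer cells of a type and less RNA per cell cannot be told apart, and with 1 pool per label and time the p-values measure the spread between these pools.

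A few genes were near absent under one label. DPOGS213736 (scaffold DPSCF300619, 2733 to 6137) had 7.55, 9.41 and 10.1 FPKM as its lowest, median and highest value in the 8 pools labelled female, on 215 reads per library. It was listed at 0 in 7 of the 8 pools labelled male and at 0.0421 in the eighth, ZT19. The groups were far apart at every time, and no fold is given against a group listed at 0. The fitted difference, which depends on the pseudocount, was 3.32 ± 0.07 (SE, limma adjusted p = 1.26e-08).

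DPOGS213644 (DPSCF300165, 50629 to 56912) ranged more widely among the pools labelled female, with 3.96, 7.86 and 21.4 FPKM as lowest, median and highest. Its highest value was at ZT7 and its lowest at ZT19. In pools labelled male it was listed at 0 in 3 pools, and the highest was 0.0842. The groups did not overlap, and the fitted difference was 3.14 ± 0.25 (limma adjusted p = 1.65e-04).

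In the other direction, DPOGS212555 (DPSCF300075, 514515 to 516817) was listed at 0 in all 8 pools labelled female. In pools labelled male its lowest, median and highest values were 13.0, 17.1 and 24.2 FPKM, on 40 reads per library. The fitted difference of -4.15 ± 0.10 had the largest size of all called genes with one sign in all pairs (limma adjusted p = 1.26e-08). DPOGS203943 (DPSCF300005, 68288 to 69431) was listed at 0 in 5 pools labelled female and at no more than 0.123 in the rest, against 4.85, 6.11 and 6.77 FPKM in pools labelled male (-2.75 ± 0.08, limma adjusted p = 9.46e-08). Both genes were high in every pool labelled male.

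Only 3 of the 15130 genes were at 0 in all pools of one label and above 0 in all pools of the other. DPOGS212555 is one of them, and the others were found in pools labelled female alone. DPOGS211681 (DPSCF300151, 414398 to 415620) had 0.896, 1.62 and 2.47 FPKM there, on 22.8 reads per library. DPOGS200003 (DPSCF300466, 57981 to 58372) had 1.26, 2.28 and 3.41 FPKM, on 6.25 reads per library, so its absence under the male label rests on few reads. The rule for these 6 genes asked for one sign in all 8 pairs, so that sign is no result.

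**Figure D2:**
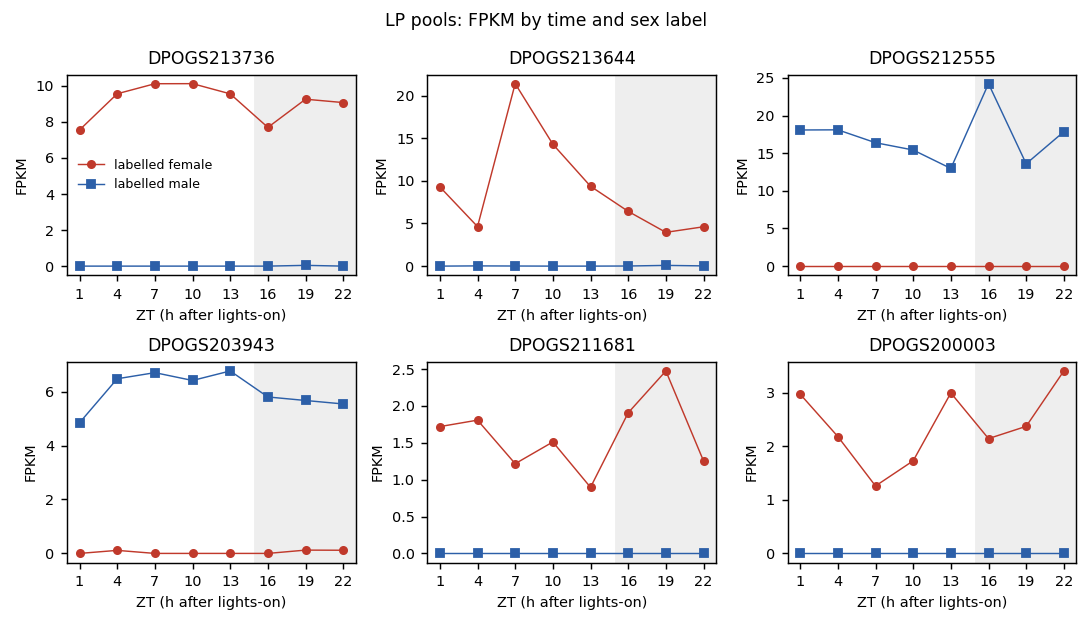
Each panel shows FPKM on the y axis against ZT in hours on the x axis for 1 gene, with 1 point per pool (red circles labelled female, blue squares labelled male; lines join pools of a label, and grey marks the dark hours). The labels do not overlap in any of the 6 genes, and one label sits at or near 0 throughout.

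The 12 genes with the largest differences in each direction were looked up by scaffold. They were taken among called genes with a mean of 1 FPKM or more and one sign in all pairs. Scaffolds are not placed on chromosomes here, so a spread over chromosomes cannot be read from them. The 12 higher in pools labelled female lay on 12 scaffolds and ranged in log2 difference from 0.915 to 3.32. The 12 higher in pools labelled male lay on 11 scaffolds and ranged from -1.13 to -4.15. In each set the labels did not overlap for 9 of the 12. Over all tested genes this held for 1.35% female-higher and 1.45% male-higher. The 12 were picked for large differences of one sign in these same pools, so that count is no result. These genes were picked from 568 and 551 that met the rule, and 2 and 1 of them rest on fewer than 10 reads per library under both labels.

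Most of these 24 genes kept their sign in Migrant pools and turned in SP pools. Of the 12 higher in LP pools labelled female, 9 had the same sign in Migrant and 2 in SP, and of the 12 higher in LP pools labelled male, 8 and 1 did. Over all tested genes the LP sign was shared by 46.5% in Migrant and 48.8% in SP. Among all genes called in LP the share depended on the direction. In Migrant 28.4% of the female-higher and 71.7% of the male-higher calls had the LP sign, and in SP 68.0% and 29.4%. The 8 of 12 male-higher genes in Migrant are therefore near the share of all male-higher calls. The Migrant pool labelled female of ZT22 stood apart from the other Migrant pools, with 2627 genes listed at 0 and 9.17% of reads in its 10 top genes, where the others had 2111 to 2431 and 5.87% to 6.91%. DPOGS213736 had 3.36, 7.37 and 8.34 FPKM (lowest, at ZT22, median and highest) in Migrant pools labelled female and was listed at 0 in 7 of 8 Migrant pools labelled male. In SP it was listed at 0 in all 8 pools labelled female and had 0.761, 1.57 and 3.38 FPKM in pools labelled male. DPOGS212555 was listed at 0 in all 8 Migrant pools labelled female and had 2.67 to 6.40 FPKM in those labelled male, but in SP it had 13.6 to 21.2 FPKM in pools labelled female and was listed at 0 in 7 of 8 labelled male.

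DPOGS203943, DPOGS211681 and DPOGS200003 followed the same order, LP and Migrant alike and SP the other way. For DPOGS203943 the Migrant pools labelled male had 1.23 to 3.12 FPKM and the SP pools labelled female 6.55 to 9.65. DPOGS213644 turned in SP, with 0.508 to 13.0 FPKM in pools labelled male and at most 0.695 in pools labelled female. In Migrant it was low under both labels, with a median of 0.0378 FPKM and a highest value of 1.16, at ZT22, in pools labelled female.

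The same held for each gene whose labels did not overlap in LP and did not overlap in another group either. Of the 155 higher in LP pools labelled female, 6 did not overlap in Migrant, all higher in female, and 20 did not overlap in SP, all higher in male. Of the 167 higher in LP pools labelled male, 26 did not overlap in Migrant, all higher in male, and 34 did not overlap in SP, all higher in female. In each of these cases the gene went with the replicate number, whichever sex label that number carried. Over all tested genes, 7 were higher in female without overlap and 44 in male in Migrant, and 134 and 50 in SP. This turn in SP was already known from earlier results of these data.

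Relative to the all-gene median of each group, the shares over all called genes lay nearer to those of all genes. The all-gene median of the female minus male difference was -0.0648 in Migrant and 0.166 in SP, so LP calls were read relative to those medians. Of the 1037 genes higher in LP pools labelled male, 52.6% lay on the male side of the median in Migrant and 44.5% in SP. Of the 930 higher in LP pools labelled female, 41.2% lay on the female side in Migrant and 52.7% in SP. Over all genes each side holds an equal share by construction.

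Mean levels of some scaffolds differed between the labels. Each of 292 scaffolds with 10 or more tested genes, 10306 genes in all, was given 1 value per library, the mean log2(FPKM + 1) of its tested genes, and these values were tested with limma in the same paired design. Of these scaffolds 33 (11.3%) were called, 12 (4.11%) female-higher and 21 (7.19%) male-higher. The differences of the latter reached -0.325, while the largest of the former was 0.162. Leaving out the pair of ZT7 left 9 scaffolds called, those of ZT10, ZT13, ZT16, ZT19 or ZT22 left 13 to 17, and leaving out ZT1 gave 53. With quantile normalization 66 were called, 34 female-higher and 32 male-higher. With the median over genes in place of the mean 28 were called, only 10 of them among the 33, and with a pseudocount of 0.1 18 were, all among the 33, so most of these calls are not shown for the typical gene of the scaffold.

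DPSCF300307, with 26 tested genes, had a mean log2(FPKM + 1) of 4.47 ± 0.11 (SD, n = 8) in pools labelled female and 4.79 ± 0.07 in pools labelled male. Every pair had the male pool higher, by differences from -0.527 to -0.124, and the fitted difference was -0.321 ± 0.036 (SE, limma adjusted p = 2.08e-04). Its 8 genes called male-higher stood beside 2 called female-higher. DPSCF300134, with 21 tested genes, was at 4.34 ± 0.07 and 4.60 ± 0.08, with the male pool higher in 8 of 8 pairs and a fitted difference of -0.264 ± 0.041 (limma adjusted p = 0.00408). On that scaffold 8 genes were called male-higher and 1 female-higher.

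DPSCF300068 had the second-highest share of called genes of all scaffolds tested. Of its 49 tested genes 55.1% were called, 23 male-higher and 4 female-higher, against 17.1% of all tested genes. The male pool was higher in 7 of 8 pairs, with the exception of ZT4 at 0.00211, and the fitted difference was -0.170 ± 0.035 (limma adjusted p = 0.0132). DPSCF300307, DPSCF300134 and DPSCF300068 kept their call under all 18 alternative settings run on scaffolds.

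DPSCF300075 had the largest scaffold difference, -0.325 ± 0.029 (limma adjusted p = 3.23e-05), but 1 of its 19 tested genes carries much of it. Without DPOGS212555, described above, the mean difference was -0.112, and the call was lost when the median over genes replaced the mean. In all, 9 of its genes were called male-higher, DPOGS212555 included, and 1 female-higher.

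A further 4 male-higher scaffolds held called genes of both signs. DPSCF300012 (74 tested genes) differed by -0.139 ± 0.036, with 24 genes called male-higher and 4 female-higher. DPSCF300005 (71 genes) differed by -0.125 ± 0.022, with 19 and 11. Its first 10 tested genes (6091 to 291498) were at -0.324 on average, and at -0.055 without the most extreme of them. DPSCF300003 (95 genes) differed by -0.094 ± 0.027, with 20 and 8. DPSCF300083 (39 genes) had the highest share of called genes of all scaffolds tested, 59.0%, but 8 of them were female-higher beside 15 male-higher, and its mean difference of -0.080 ± 0.021 went to -0.034 without its most extreme gene. The median scaffold had 15.9% of its genes called. Together the 21 scaffolds held 668 tested genes, of which 188 were called male-higher and 45 female-higher. Over all tested genes 9% were called male-higher and 8.07% female-higher. The scaffolds were called on the mean of these same genes, so the direction of these counts is no result.

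The 12 scaffolds higher in pools labelled female held 309 tested genes, 54 called female-higher and 7 male-higher. Over all tested genes 17.1% were called, 8.07% female-higher and 9% male-higher. These scaffolds too were called on the mean of the same genes, so the direction of these counts is no result. DPSCF300216 (20 genes) had the largest mean difference, 0.162 ± 0.038, with the female pool higher in 7 of 8 pairs. It lost its call under 6 of 18 alternative settings, among them leaving out the pair of ZT7, ZT10, ZT13 or ZT16. DPSCF300053 (43 genes) differed by 0.077 ± 0.021, with 10 genes called female-higher and 0 male-higher, and lost its call under 9 of 18 settings, among them leaving out any one pair from ZT4 to ZT19. DPSCF300221 (19 genes) differed by 0.082 ± 0.017 in all 8 pairs, with pair differences between 0.0558 and 0.102, and lost its call under 1 setting, leaving out the pair of ZT7. DPSCF300204 (10 genes) fell from 0.127 to 0.00208 without its most extreme gene.

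**Figure D3:**
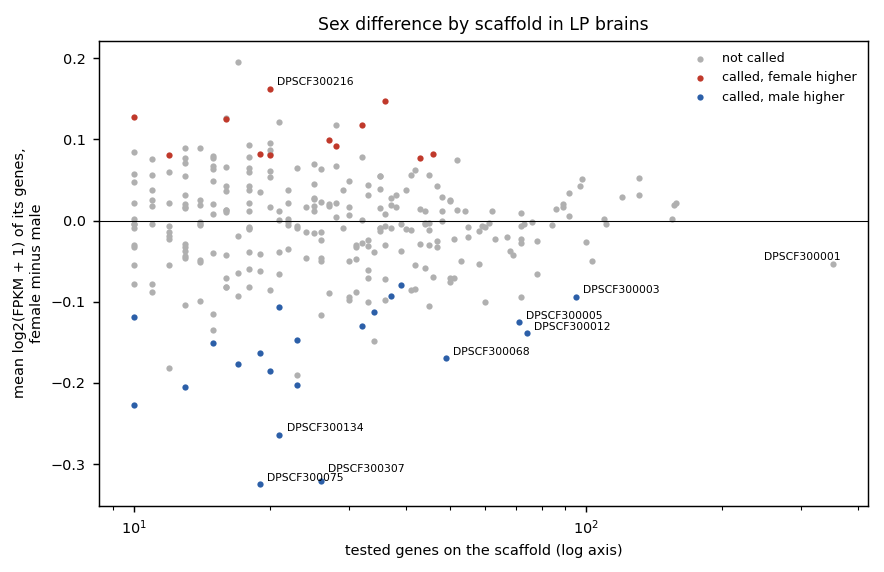
Each point is 1 of 292 scaffolds; the x axis is its number of tested genes on a log axis, and the y axis is the female minus male difference of the mean log2(FPKM + 1) of those genes. The 21 called male-higher scaffolds (blue) reach -0.325, and the 12 called female-higher scaffolds (red) reach 0.162. The scaffold with the most genes, DPSCF300001, is at -0.053 and is not called in this main fit, but is called under some alternative settings.

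Differences often covered a stretch of a scaffold and not the whole. DPSCF300001 has the most tested genes, 353, of which 83 were called male-higher and 35 female-higher (33.4%). Its mean difference of -0.053 ± 0.022 was not called in the main fit (limma adjusted p = 0.124). DPSCF300001 was called under 2 of the alternative settings, while 16 left it not called. After median-ratio scaling its LP difference was -0.0429 ± 0.0205 (SD over pairs), with the male pool higher in all 8 pairs. The next 4 scaffolds by number of genes, DPSCF300014, DPSCF300010, DPSCF300041 and DPSCF300007, lay between 0.00260 and 0.0320 and were not called. To place the differences, scaffolds were divided into 1044 blocks of 10 consecutive tested genes (the last of a scaffold may differ in size), and 122 (11.7%) were called with limma, 55 (5.27%) higher in female and 67 (6.42%) higher in male.

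On DPSCF300001 8 of the 35 blocks were called male-higher and 1 female-higher. Block 26 (3732630 to 3881564) was lowest, at -0.317 ± 0.041 and below 0 in all 8 pairs, and at -0.209 without its most extreme gene. Block 15 (2193411 to 2289047) was the female-higher one, at 0.225 ± 0.029 and above 0 in all 8 pairs, with 6 of its 10 genes called female-higher and 1 male-higher. The neighbouring blocks 14 and 16 were near 0, at -0.029 and 0.023.

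The call of DPSCF300003 came with 1 called block among 10, block 6 (879599 to 1021520), at -0.363 ± 0.031 and with pair differences from -0.474 to -0.276. On DPSCF300012 block 1 (39695 to 384504) was at -0.439 ± 0.058 and block 7 at -0.172 ± 0.047, while the 5 blocks between them were not called. DPSCF300068 was more even: 4 of its 5 blocks were called, between -0.320 and -0.170, and the middle one was at 0.043 ± 0.046. On DPSCF300307 the first block was at -0.017 and the others at -0.418 and -0.668, the last of which was at -0.349 without the most extreme of its 6 genes. Near-identical neighbouring copies of a gene can share reads, so block values with such copies are uncertain.

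**Figure D4:**
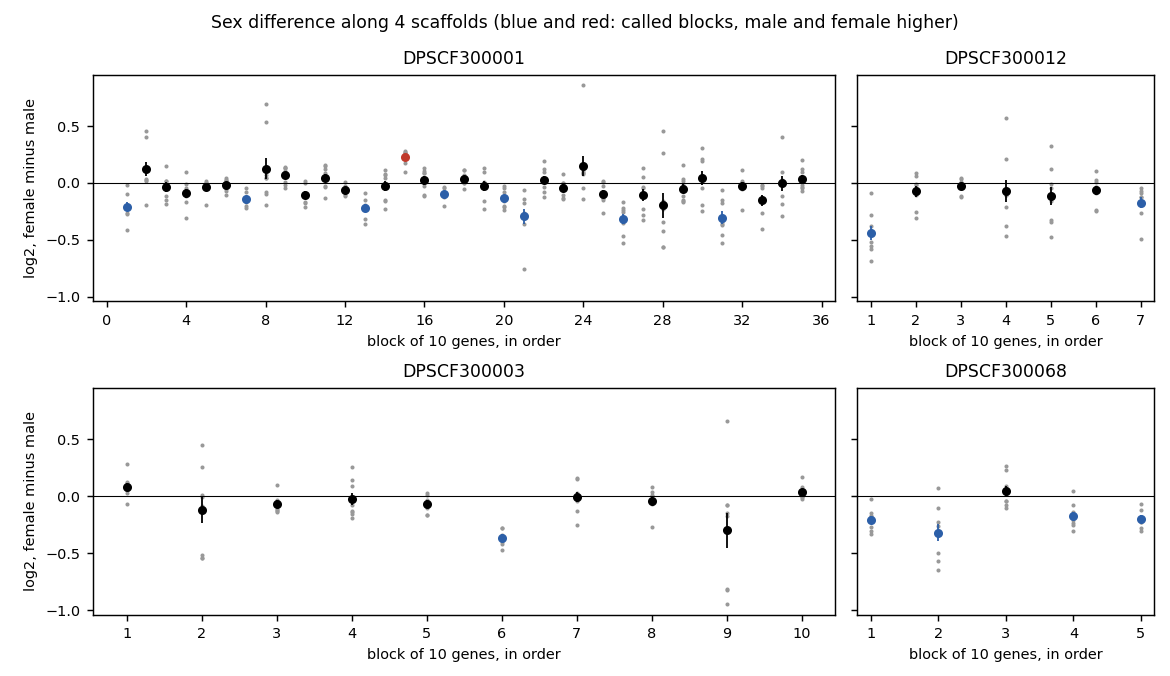
Each panel shows 1 scaffold, with blocks of consecutive tested genes in order on the x axis and the female minus male difference in mean log2(FPKM + 1) on the y axis; small grey points are the 8 ZT pairs, and large points with bars are the fitted difference ± SE. Called blocks are blue where male was higher and red where female was higher, and DPSCF300001 shows 8 blue blocks and 1 red block among 35 while DPSCF300068 shows 4 blue blocks of 5.

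Called blocks of both directions lay on many scaffolds. A called male-higher block was found on 49 scaffolds and a called female-higher block on 46, with 4 scaffolds holding both. Of the 67 male-higher blocks, 28 lay on the 21 called male-higher scaffolds, which were called on the same genes, so this count is no separate result. Larger block differences were mostly male-higher: of all 1044 blocks, called or not, 45 lay below -0.2 and 11 above 0.2. At the level of single genes there were 57 runs of 3 or more neighbouring tested genes called in the same direction, 38 male-higher and 19 female-higher. The longest held 6 male-higher genes on DPSCF300001 (3050278 to 3104023), with a mean difference of -0.413, and a run of 4 female-higher genes lay on the same scaffold (2192820 to 2236512), with a mean of 0.499.

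The scaffold differences were set beside those of Migrant and SP to ask whether they recur in other libraries. In a limma fit of 48 libraries as deposited, the sex difference of LP differed from that of Migrant for 0 of 292 scaffolds (0%), with 15 at an unadjusted p under 0.05, and from that of SP for 127 (43.5%). Of the latter, 126 had a lower female minus male difference in LP. FPKM differed in overall scale between labels in SP and Migrant, and after libraries were brought to a common scale by the median ratio of their genes the counts were 0 (0%) for Migrant, with 20 at an unadjusted p under 0.05, and 27 (9.25%) for SP. With a pseudocount of 0.1, 1 scaffold was called different from Migrant, and with library quality weights 3 were. Without both Migrant ZT22 pools the fit as deposited called 0 scaffolds different from Migrant, with 7 at an unadjusted p under 0.05, and 175 different from SP. The values that follow are scaled and include ZT22.

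Several male-higher scaffolds of LP kept their sign in Migrant and turned in SP. DPSCF300075 was at -0.306 ± 0.055 (SD over 8 pairs) in LP, -0.302 ± 0.209 in Migrant and 0.680 ± 0.403 in SP. DPSCF300134 was at -0.250 ± 0.099, -0.189 ± 0.123 and 0.341 ± 0.272, with the male pool higher in 8, 8 and 1 of 8 pairs. DPSCF300012 was at -0.127 ± 0.078, -0.154 ± 0.072 and 0.137 ± 0.058, with the male pool higher in 8, 8 and 0 pairs. The difference between LP and SP was called for each of these (limma adjusted p = 7.20e-06, 5.43e-05 and 9.57e-05). These scaffolds were chosen on their LP difference, which that test also uses, and were picked here for their turn. The p-values are therefore no separate support.

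Other scaffolds had means below 0 in all 3 groups on these scaled values. DPSCF300307 was at -0.306 ± 0.113 in LP, -0.139 ± 0.276 in Migrant and -0.128 ± 0.356 in SP, and LP and SP were not called different (limma adjusted p = 0.350). DPSCF300485 was below 0 in all 3 groups, at -0.215 ± 0.123, -0.150 ± 0.159 and -0.319 ± 0.418. For both scaffolds the Migrant and SP values were smaller in size than their SD, so their signs there are uncertain. As deposited, without scaling, the 3 blocks of DPSCF300307 were at 0.204, -0.213 and 0.087 in SP. The spread between pairs was wider in Migrant and SP than in LP for all 5 of these scaffolds but DPSCF300012.

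Of the 21 male-higher scaffolds, 14 had the LP sign in Migrant, where 70.2% of all tested scaffolds were below 0, so that share is near the background. In SP 10 had the LP sign, and LP and SP were called different for 10, beside 27 among all 292 scaffolds. The 21 were chosen on LP values that this test also uses, so that count is no separate result. Of the 12 female-higher scaffolds 1 had the LP sign in Migrant and 9 in SP, where 179 of the 292 scaffolds were above 0.

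**Figure D5:**
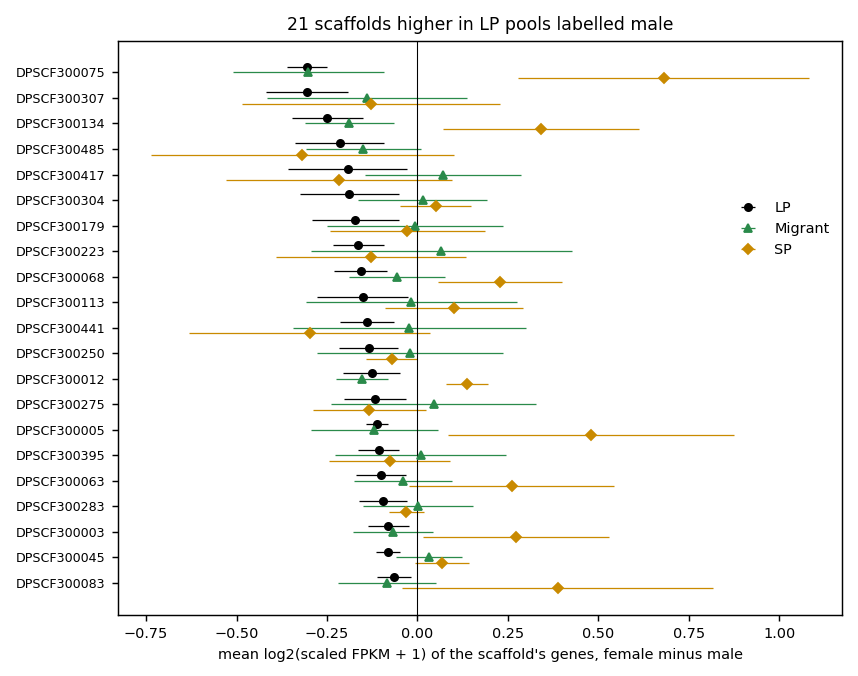
For each of the 21 scaffolds called male-higher in LP (rows), points show the female minus male difference of the mean log2(scaled FPKM + 1) on the x axis in LP (black circles), Migrant (green triangles) and SP (orange diamonds), with bars of 1 SD over the 8 ZT pairs. DPSCF300075, DPSCF300134 and DPSCF300012 are below 0 in LP and Migrant and above 0 in SP, while DPSCF300307 and DPSCF300485 are below 0 in all 3.

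Whether the difference between labels changed over the day was tested in 2 ways. The mean difference of the 5 light-hour pairs minus that of the 3 dark-hour pairs was called for 0 of 11518 genes (0%) with limma, with 346 at an unadjusted p under 0.05 and a lowest adjusted p of 0.999. A difference in the 24 h cosine and sine terms was called for 0 genes (0%), with 1315 at an unadjusted p under 0.05 and a lowest adjusted p of 0.350. No other tool was run for these. Where nothing differs, a share of 0.05 is expected under that unadjusted threshold, and the first count lies below it and the second above. Genes share libraries, so neither count is a test by itself. With 1 pool per label and time, 0 calls do not show that the difference is constant over the day.

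The genes with the smallest p did not pass. DPOGS205629 (DPSCF300023, 475060 to 477017) differed by -0.42 in light and -0.999 in dark hours, a gap of 0.58 ± 0.11 (limma adjusted p = 0.999). DPOGS203446 (DPSCF300242, 18405 to 19746) differed by 0.06 and 1.02, a gap of -0.96 ± 0.18 (limma adjusted p = 0.999). DPOGS212511 (DPSCF300222, 343732 to 344176) differed by 0.26 in light and -0.38 in dark hours, and DPOGS205887 (DPSCF300089, 552945 to 558773) by -0.04 and 0.36, both also at a limma adjusted p of 0.999. For the rhythm, the label difference of DPOGS215561 (DPSCF300097, 354676 to 355237) had a 24 h amplitude of 1.02 on the log2 scale (limma adjusted p = 0.350), and that of DPOGS201156 (DPSCF300065, 151450 to 152261) one of 0.36 (limma adjusted p = 0.350).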

How the data were processed

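RNA sequencing of 48 libraries was deposited as 1 table per library with FPKM and its confidence limits. Per the submitters' processing notes, CASAVA 1.8.2, TopHat2 and Cufflinks were used; the sources used here give no genome build, and coordinates are copied from the deposited tables (starts may be shifted by 1 base). The members, gene rule and tests were chosen with earlier results of these data known.

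The deposited FPKM were taken as log2(FPKM + 1), and the 16 LP libraries were fitted with limma 3.58.1 (trend, robust) in R 4.3.3, with a mean for each ZT, a minimum mean FPKM of 0.5, and Benjamini-Hochberg adjustment. Scaffold and block means were fitted alike, and the comparison with Migrant and SP used all 48 libraries. Migrant libraries were made with another library kit. Tables and plots used Python 3.11.15, pandas 2.3.3 and matplotlib 3.10.9, and the fits were tested on simulated data.

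Named genes were the 12 with the largest difference in each direction among called genes of one sign in 8 pairs and at least 1 FPKM on average, and all genes at 0 in one label only; at most 2 in each direction are printed by identifier, plus the latter. For the light-dark test the 2 genes of each direction with the smallest p are printed, and for the rhythm test, which has no direction, 2 genes. Scaffolds were the called ones, up to 12 in each direction, and the 5 with most genes; DPSCF300012, DPSCF300005, DPSCF300003 and DPSCF300083 were added after their values were seen.

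Reads were recovered from the confidence limits. Of recovered values under 30 reads, 82.5% to 85.0% per LP library lay within 0.05 of a whole number, so no count test was run, and reads give depth and a voom alternative only.

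Alternatives were other pseudocounts, filters, scalings and spread estimates, fits without the ZT term, each ZT pair left out in turn, other block sizes and the median over genes. Quality weights per library, a minimum of 10 reads per library and a fit without both Migrant ZT22 pools were added after the data were seen.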

Additional observations from a re-analysis of the deposited data

Results flagged for a closer look

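A single value stood apart from the other 7 in 4 of the 38 sets of 8 values tested with Dixon's test (critical value 0.526). Each set held the pools of 1 label for a gene or the pair differences of a scaffold. Chance flags about 1 in 20 where values are continuous. DPOGS213736 was at 0.04207 FPKM in the LP male pool of ZT19 and at 0 in the others. With the other 7 values at 0, any value above 0 would be flagged, so the chance rate does not hold there. DPOGS213644 was at 0.08418 FPKM in the same pool, its highest value under the male label. Both values are close to 0 beside the pools labelled female. DPOGS212555 reached 24.23 FPKM in the LP male pool of ZT16. The difference of scaffold DPSCF300325 at ZT1 was 0.2671, the highest of its 8 pairs.

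The sex difference of LP differed from that of SP for 127 scaffolds as deposited (limma), and for 27 after median-ratio scaling. For each of the 6 genes printed one by one, every LP pair moved one way and every SP pair the other; other genes also did so. The SP difference, female minus male in log2(FPKM + 1), was -1.404 for DPOGS213736, -2.546 for DPOGS213644, -2.455 for DPOGS211681 and -2.439 for DPOGS200003, all above 0 in LP. It was 4.001 for DPOGS212555 and 3.196 for DPOGS203943, both below 0 in LP. For these genes the difference between LP and SP was not tested one by one.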

How the results depend on the processing

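Replicates are numbered here in ZT order. Leaving out 1 pair in turn gave 848 to 2399 called genes (main 1967), 9 to 53 scaffolds (main 33), 47 to 165 blocks (main 122), 0 to 1 light-dark genes and 0 rhythm genes. With all 48 libraries in the fit 143 genes were called, and under the other settings 1720 to 2792. With voom 55.6% of the calls were female-higher, beside 47.3%. Scaffold calls were 18 with a pseudocount of 0.1, 69 with median-ratio scaling, 66 with quantile normalization (34 female-higher, 32 male-higher), 55 without the replicate block and 54 with library quality weights. The median over genes gave 28, of which 10 were shared with the mean. Blocks of 5 and 20 genes gave 283 and 72 calls. Without the replicate block (no ZT term) 2334 genes were called, 1768 of them shared; deviations of same-ZT pools from their label means correlated at -0.109 to 0.092. Against Migrant, 1 scaffold differed with a pseudocount of 0.1 and 3 with quality weights; against SP, 27 with median-ratio scaling. Signs turned for DPSCF300113 (0.0013), DPSCF300325 (-0.0311) and DPSCF300010 (-0.0219) with the median over genes. DPSCF300041, near 0, was at -0.0043 with a pseudocount of 0.1, at -0.0014 with quality weights and from -0.0086 to 0.0112 with 1 pair left out. The causes were not tested. The 25 named genes kept their direction under each setting that could be fitted, and 5 of them lost the call under 1 to 6 settings.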
